A study of Saccharomyces cerevisiae with 24 samples.

Results

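The levels of 10 budding yeast cell cycle genes were followed: the G1 cyclin genes CLN1 (YMR199W), CLN2 (YPL256C) and CLN3 (YAL040C), the B-type cyclin genes CLB1 (YGR108W), CLB2 (YPR119W), CLB5 (YPR120C) and CLB6 (YGR109C), the Pho85 cyclin gene PCL1 (YNL289W), the inhibitor gene SIC1 (YLR079W) and the endonuclease gene HO (YDL227C). They were taken by name, 10 of the 6685 transcripts in the deposited table, and all 10 passed the filter on low values. The list was drawn up with earlier results of these data known and records no value or threshold by which a gene entered. The heat shock response is therefore given as a description, with its calls set beside the share of all transcripts. Only the differences between RNA isolation methods are read as tests.

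The study asked whether the way RNA is isolated changes what an RNA-seq comparison shows, using the yeast heat shock response as the perturbation. All 24 libraries came from strain BY4741, a haploid of mating type a in the S288c background that carries deletions of HIS3, LEU2, MET15 and URA3, grown to mid-exponential phase. Heat-shocked cells had been moved to 37 °C for 20 min, and unstressed cells were taken at 30 °C and 0 min, from the same 4 cultures. From each culture and treatment, 3 samples were drawn, and RNA was isolated with hot acid phenol followed by a column clean-up (Phenol), with a silica column kit (RNeasy) or with a guanidinium-phenol kit (Direct-zol). This gave 6 groups of 4 biological replicates. Values are TPM, read abundance per transcript length expressed relative to all transcripts of the same library. The table gives no read counts, so the depth behind each value cannot be read from it.

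Cell identity was checked in all libraries. Deposited TPM summed over 6 genes of MATa cells lay between 1134 and 2193 in heat-shocked cells, against 2146 to 3709 in unstressed cells. The sum over 4 genes of MATα cells lay between 32.0 and 59.8 in heat-shocked cells, against 27.8 to 54.5 in unstressed cells. Of these, both α-factor genes were at 2.62 TPM or less. SAG1 was the highest, with 23.3 to 44.6 TPM in heat-shocked cells, against 22.4 to 48.8 TPM in unstressed cells. STE3 had 7.14 to 14.7 TPM, against 3.53 to 6.51 TPM. The MATa gene ASG7 was no higher than 69.5 TPM in heat-shocked cells and 43.0 TPM in unstressed cells. Transcripts of the deleted LEU2, MET17 (another name of MET15) and URA3 were at 0.1 TPM or less, and 6 heat shock protein genes summed to 18290 to 35490 TPM in heat-shocked cells, against 200.9 to 521.9 TPM in unstressed cells. Whole-table shifts between libraries were removed by scaling. On the deposited TPM the median transcript differed between heat-shocked and unstressed cells by 0.19 (Phenol), 0.26 (RNeasy) and 0.29 (Direct-zol) on the log2 scale, and log2 differences below are relative to that shift.

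Cyclins are the regulatory subunits that switch on cyclin-dependent kinases, Cdc28 for the CLN and CLB products and Pho85 for Pcl1. Cln3 acts upstream of the factors SBF (Swi4 and Swi6) and MBF (Mbp1 and Swi6), which turn on a late G1 programme that includes CLN1, CLN2, PCL1, HO, CLB5 and CLB6, whereas CLB1 and CLB2 belong to the G2/M programme of Mcm1, Fkh2 and Ndd1. Sic1 inhibits the Clb kinases from late mitosis through G1, and HO encodes the endonuclease of mating type switching, which laboratory strains such as BY4741 carry as a non-functional allele whose transcript is still made. A brief pause of yeast cells in G1 after a temperature upshift is textbook knowledge. In these unsynchronised cultures, fewer cells in a phase and less transcript per cell in that phase cannot be told apart.

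Stretches upstream of 4 of the late G1 genes are shown because they hold the letters that SBF and MBF are known to bind, and because HO, CLN2 and CLB6 had the lowest heat-to-unstressed values of the 10 genes, whereas PCL1 was not lower. They were read from the R64 genome, the build of the files, on the coding strand: HO chrIV:48421-48636 (minus strand), CLN2 chrXVI:67134-67204 (minus strand), CLB6 chrVII:706867-706913 (minus strand) and PCL1 chrXIV:87562-87621 (plus strand). Capitals mark the SBF motif (CACGAAA or CGCGAAA) and the MBF motif (ACGCGT), on either strand, so that TTTCGTG and TTTCGCG are the SBF motif read from the other strand.
HO: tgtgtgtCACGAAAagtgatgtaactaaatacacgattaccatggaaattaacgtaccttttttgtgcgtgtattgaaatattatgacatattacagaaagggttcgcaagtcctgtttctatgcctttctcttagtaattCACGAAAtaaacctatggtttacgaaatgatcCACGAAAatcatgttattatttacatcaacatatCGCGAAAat
CLN2: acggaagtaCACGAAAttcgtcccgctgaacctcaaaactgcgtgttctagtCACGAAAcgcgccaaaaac
CLB6: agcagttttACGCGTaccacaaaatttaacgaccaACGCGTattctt
PCL1: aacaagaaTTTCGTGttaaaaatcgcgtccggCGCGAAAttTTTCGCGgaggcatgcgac

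Within 600 bases before the start codon, HO held 5 matches to these motifs, PCL1 held 3, CLN2 and CLB6 held 2 each and SIC1 held 1, at 7 bases before its start codon. The fifth match of HO lay 249 bases before the start codon, outside the stretch shown. No match was found in this window for CLN1, CLN3, CLB1, CLB2 or CLB5, which says only that these letters are not there. Of 5999 promoters of the same length, 19.4% held at least 1 match and 2.82% held at least 2. In the shorter window of 250 bases before to 50 bases after the start codon, only HO and SIC1 of the 10 genes held a match, against 10.4% of 6001 promoters. Units of the heat shock element (GAANNTTC or TTCNNGAA) occurred within 600 bases of the start codon in HO and CLB2, where 22.8% and 25.1% of all promoters hold each. The core of the stress response element (CCCCT, 39.7% of promoters) occurred in CLN1, CLB2 and SIC1.

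The 10 genes lie on 7 chromosomes, each is a single exon, and none overlaps another protein-coding gene. CLB1 (chrVII:703636-705051, plus strand) and CLB6 (chrVII:705359-706501, minus strand) face each other with 307 bases between their ORF ends, and CLB2 (chrXVI:771653-773128, plus strand) and CLB5 (chrXVI:773875-775182, minus strand) face each other with 746. None of the 50-base stretches of the 10 ORFs, the length of the reads, occurs elsewhere in the genome. Whether the counting used strand was not given in the sources used here, so for these convergent pairs reads running past the ORF ends could not be examined.

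CLN3 and SIC1 had higher deposited TPM in heat-shocked cells with each method. CLN3, the cyclin gene most upstream in the G1/S switch, had 313, 259, 360 and 248 TPM in heat-shocked cells with the Phenol method, against 224, 219, 147 and 233 TPM in unstressed cells. With the RNeasy method CLN3 had 180.45, 201, 292 and 176 TPM in heat-shocked cells, against 109, 128, 131 and 139 TPM in unstressed cells. With the Direct-zol method it had 179.9, 208, 212 and 168 TPM in heat-shocked cells, against 101, 103, 113 and 113 TPM in unstressed cells. Heat-shocked and unstressed values did not overlap with any method. After scaling, heat minus unstressed was 0.32 (Phenol), 0.45 (RNeasy) and 0.53 (Direct-zol) on the log2 scale, each with an SE of 0.15, the widest SE of the genes that were higher.

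SIC1, the inhibitor gene of the Clb kinases, lay between 134 and 222 TPM in the 12 libraries of heat-shocked cells, with a median of 194, against 90.1 to 141 TPM with a median of 124 in those of unstressed cells. Within each method the groups did not overlap. Scaled SIC1 differences were 0.30 (Phenol), 0.29 (RNeasy) and 0.43 (Direct-zol), with an SE of 0.09.

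Late G1 genes did not move as a block. HO had the lowest heat-to-unstressed value of the 10 genes. With the Phenol method HO had 2.27, 2.32, 4.52 and 2.70 TPM in heat-shocked cells, against 69.3, 77.4, 60.2 and 70.2 TPM in unstressed cells. With the RNeasy method it had 5.59, 4.65, 5.34 and 6.16 TPM in heat-shocked cells, against 113, 109, 113 and 132 TPM in unstressed cells. With the Direct-zol method it had 4.54, 4.25, 4.29 and 5.21 TPM in heat-shocked cells, against 98.3, 102, 104 and 94.0 TPM in unstressed cells. The highest heat-shocked library was about an order of magnitude under the lowest unstressed one. Scaled differences of HO were -4.40 (Phenol), -4.41 (RNeasy) and -4.45 (Direct-zol) with an SE of 0.12, or 21.1-, 21.2- and 21.9-fold lower in heat-shocked cells on the log2(scaled TPM + 1) scale. That scale understates the change of a transcript this low, and with a pseudocount of 0.1 the differences were -4.77, -4.66 and -4.72.

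CLN2, a late G1 cyclin gene, had 102, 63.0, 43.6 and 52.6 TPM in heat-shocked cells with the Phenol method, against 195, 206, 145 and 191 TPM in unstressed cells. With the RNeasy method CLN2 had 108, 62.3, 55.4 and 63.1 TPM in heat-shocked cells, against 194, 195, 199 and 209 TPM in unstressed cells. With the Direct-zol method it had 111, 61.9, 46.0 and 57.0 TPM in heat-shocked cells, against 182, 183, 177 and 182 TPM in unstressed cells. No heat-shocked library reached the lowest unstressed one, and replicate 1 was the highest of the heat-shocked libraries with every method. Scaled differences of CLN2 were -1.75, -1.76 and -1.76 (SE 0.16) for Phenol, RNeasy and Direct-zol.

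CLN1, its paralogue, lay between 37.3 and 73.6 TPM in heat-shocked cells (median 54.7), against 58.1 to 107 TPM in unstressed cells (median 83.1), and its scaled differences were smaller, at -0.87, -0.88 and -0.79 (SE 0.07). The S phase cyclin gene CLB5 lay between 9.56 and 19.1 TPM in heat-shocked cells, against 22.9 to 40.4 TPM in unstressed cells, with scaled differences of -1.35, -1.37 and -1.25 (SE 0.07). Both genes were lower in heat-shocked cells with all 3 methods and without overlap between groups of the same method.

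CLB6, the other S phase cyclin gene and the least abundant of the 10 in unstressed cells, had 2.49, 3.88, 3.03 and 2.99 TPM in heat-shocked cells with the Phenol method, against 10, 14.8, 12.9 and 13.3 TPM in unstressed cells. With the RNeasy method it had 2.38, 3.20, 4.13 and 5.22 TPM in heat-shocked cells, against 19.9, 21.0, 20.7 and 21.3 TPM in unstressed cells. With the Direct-zol method it had 5.29, 4.05, 4.0 and 3.66 TPM in heat-shocked cells, against 15.2, 14.9, 18.6 and 16.0 TPM in unstressed cells. The groups were far apart with each method, and the scaled differences were -1.95, -2.43 and -1.98 (SE 0.14).

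PCL1, the late G1 cyclin gene of the Pho85 kinase, did not share the lower levels of its class. It had 84.2, 91.7, 89.8 and 67.6 TPM in heat-shocked cells with the Phenol method, against 67.8, 67.0, 52.1 and 53.0 TPM in unstressed cells, with the lowest heat-shocked library just under the highest unstressed one. With the RNeasy method it had 135, 127, 121 and 117 TPM in heat-shocked cells, against 96.8, 98.1, 102 and 100.1 TPM in unstressed cells, and with the Direct-zol method 128, 136, 129 and 112 TPM in heat-shocked cells, against 92.4, 96.6, 90.2 and 83.5 TPM in unstressed cells. With both kits the deposited values did not overlap, but most of that distance was the shift shared by the whole table. Scaled differences of PCL1 were 0.26 (Phenol), 0.07 (RNeasy) and 0.17 (Direct-zol), with an SE of 0.07.

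The G2/M cyclin genes were lower in heat-shocked cells. CLB2, the main mitotic cyclin gene, had 36.0, 34.2, 29.4 and 33.8 TPM in heat-shocked cells with the Phenol method, against 84.2, 86.1, 67.7 and 82.3 TPM in unstressed cells. With the RNeasy method CLB2 had 51.5, 40.1, 39.8 and 47.9 TPM in heat-shocked cells, against 75.9, 75.8, 76.8 and 81.4 TPM in unstressed cells. With the Direct-zol method it had 37.8, 31.3, 32.9 and 33.4 TPM in heat-shocked cells, against 60.4, 57.2, 60.7 and 65.1 TPM in unstressed cells. None of the groups of one method overlapped. Scaled differences of CLB2 were -1.44, -1.04 and -1.13 (SE 0.05), and those of CLB1, its paralogue, were -0.77, -0.84 and -0.75 (SE 0.11), with 32.5 to 76.0 TPM in heat-shocked cells, against 50.6 to 102 TPM in unstressed cells.

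**Figure D1:**
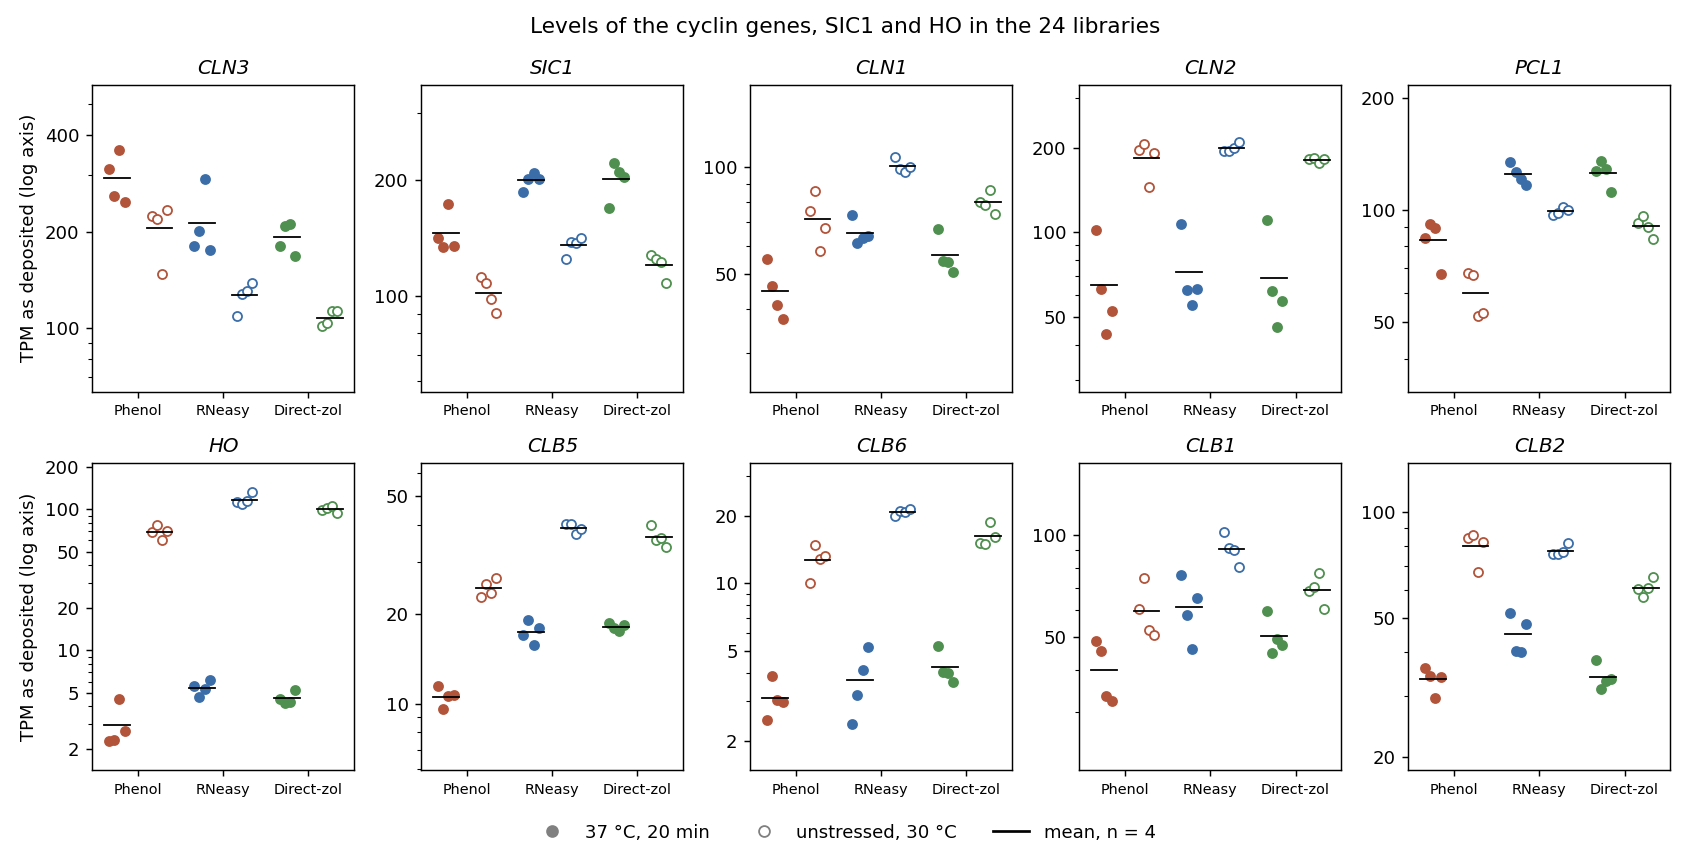
Deposited TPM (log axis, scaled to each gene) of the 10 genes in all 24 libraries, with filled points for heat-shocked and open points for unstressed cells and a line at the mean of 4 replicates, by isolation method. HO fell to 2.27 to 6.16 TPM in heat-shocked cells, against 60.2 to 132 TPM in unstressed cells, and CLN3, SIC1 and PCL1 were the genes with higher means in heat-shocked cells.

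At a false discovery rate (FDR) under 0.01 in limma, 7 of the 10 genes were called lower in heat-shocked cells with each method (CLN1, CLN2, CLB1, CLB2, CLB5, CLB6 and HO). SIC1 was called higher with all 3 methods, PCL1 with Phenol and CLN3 with Direct-zol, and these higher calls moved with the fit and the scaling. Of the 6137 transcripts tested, 63.9% were called with Phenol (31.1% higher, 32.8% lower), 63.4% with RNeasy (31.3% higher, 32.1% lower) and 63.7% with Direct-zol (31.7% higher, 32.1% lower). The calls among the 10 genes are no finding about them, since the response was known when they were listed. Of all calls 48.6%, 49.4% and 49.7% were higher in heat-shocked cells, and on TPM as deposited 62.7%, 66.6% and 69% were. Deposited TPM of heat-shocked and unstressed cells did not overlap for the same 7 lower genes with each method, nor for CLN3 and SIC1 and, with the kits, PCL1, which were higher. Over all transcripts 37.9% (Phenol), 45.8% (RNeasy) and 49.5% (Direct-zol) were higher without overlap and 21.2%, 23% and 21.6% lower. The median log2 difference over the 10 genes was -1.11, -0.96 and -0.96, and that over all transcripts was -0.00, 0.01 and 0.02. Calls of lower values held in each leave-one-out fit, which is no support, since these fits reuse the remaining libraries. Each call of a higher value was lost in some of these fits, which also hold fewer libraries. The SIC1 estimate ran from 0.23 to 0.38 with Phenol, 0.28 to 0.31 with RNeasy and 0.36 to 0.55 with Direct-zol. That of PCL1 with Phenol ran from 0.19 to 0.34, and that of CLN3 with Direct-zol from 0.46 to 0.60. The SIC1 call was lost without replicate 2, 3 or 4 with Phenol (adjusted p up to 0.084 in limma) and RNeasy (up to 0.042) and without replicate 4 with Direct-zol (0.012). The PCL1 call with Phenol was lost without replicate 2 or 3 (up to 0.036), and the CLN3 call with Direct-zol without replicate 1 or 2 (up to 0.047), whereas CLN3 with RNeasy was called once replicate 4 was left out (0.0087). CLN3 with RNeasy was also called with the replicate block set within treatment (0.0021), under quantile normalization (0.0017) and on TPM as deposited (4.5e-04), and with Phenol on TPM as deposited (0.0061). PCL1 with Direct-zol was called under quantile normalization (0.0023) and, as with RNeasy, on TPM as deposited (1.3e-05 and 6.4e-04). In a fit of the compared groups alone, the calls of PCL1 (0.041) and SIC1 (0.037) with Phenol and of SIC1 with Direct-zol (0.012) were lost.

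**Figure D2:**
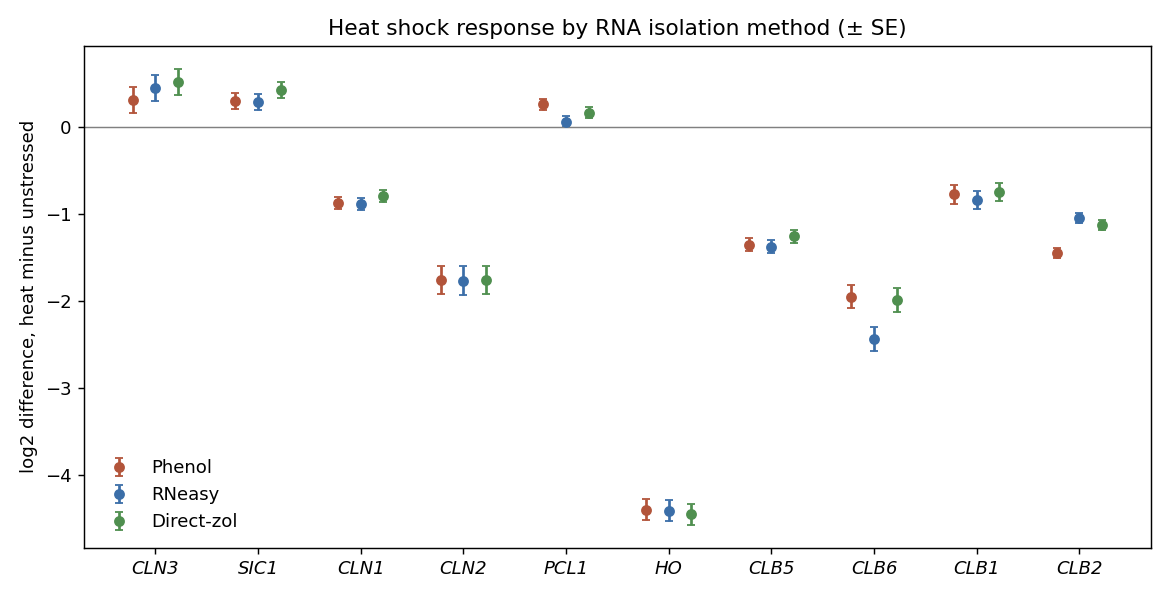
Difference between heat-shocked and unstressed cells, in log2(scaled TPM + 1), with its SE, for the 10 genes by isolation method. HO lay near -4.4 with all 3 methods, CLN2 near -1.76, and CLN3, SIC1 and PCL1 lay above 0.

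Pooled over the 3 methods, the order of the levels changed with the treatment. In heat-shocked cells the medians over 12 libraries ran in TPM as CLN3 210.2, SIC1 194, PCL1 119, CLN2 62.1, CLN1 54.7, CLB1 48.0, CLB2 35.1, CLB5 17.3, HO 4.53 and CLB6 3.77. In unstressed cells they ran as CLN2 192, CLN3 129, SIC1 124, HO 100.1, PCL1 91.3, CLN1 83.1, CLB2 75.9, CLB1 72.4, CLB5 35.9 and CLB6 15.6. Neighbours in either order mostly overlapped in range, and the order was not the same with each method. With Phenol, CLN3 averaged 205.9 TPM in unstressed cells and CLN2 184.3 TPM, with CLN3 the higher in all 4 libraries. CLB1 and CLB2 averaged 59.6 and 80.1 TPM in unstressed cells with Phenol, and 91.0 and 77.5 TPM with RNeasy. The gaps between neighbours that were free of overlap were those below CLB2 and below CLB5 in heat-shocked cells, and those below CLB1 and below CLB5 in unstressed cells. HO thus stood in the range of CLB6 in heat-shocked cells, and with PCL1 in unstressed cells.

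Paralogues differed in how far they fell, and the ratio of their TPM within a library is free of scaling. CLN1 to CLN2 stood at 0.731 ± 0.163, 0.955 ± 0.194 and 0.887 ± 0.231 in heat-shocked cells (Phenol, RNeasy and Direct-zol; SD, n = 4 each), against 0.389 ± 0.027, 0.507 ± 0.031 and 0.441 ± 0.035 in unstressed cells. Over 12 libraries each, heat-shocked cells ran between 0.540 and 1.17, against 0.353 to 0.550 in unstressed cells, so that CLN2 was the more abundant in every unstressed library and no longer in all heat-shocked ones. CLB5 to CLB6 stood at 3.53 ± 0.868, 5.10 ± 1.76 and 4.35 ± 0.613 in heat-shocked cells, against 1.96 ± 0.248, 1.89 ± 0.103 and 2.27 ± 0.307 in unstressed cells. CLB1 to CLB2 stood at 1.20 ± 0.182, 1.36 ± 0.145 and 1.48 ± 0.071 in heat-shocked cells, against 0.744 ± 0.106, 1.18 ± 0.145 and 1.14 ± 0.152 in unstressed cells. By the mean ratio, the more reduced gene of each pair was the same with all 3 methods, namely CLN2, CLB6 and CLB2. For CLB1 to CLB2 with RNeasy the libraries overlapped, at 1.16 to 1.48 in heat-shocked cells, against 0.989 to 1.34 in unstressed cells. Between the late and the early G1 cyclin gene, CLN2 to CLN3, the ratio ran between 0.121 and 0.614 in heat-shocked cells, against 0.816 to 1.80 in unstressed cells.

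**Figure D3:**
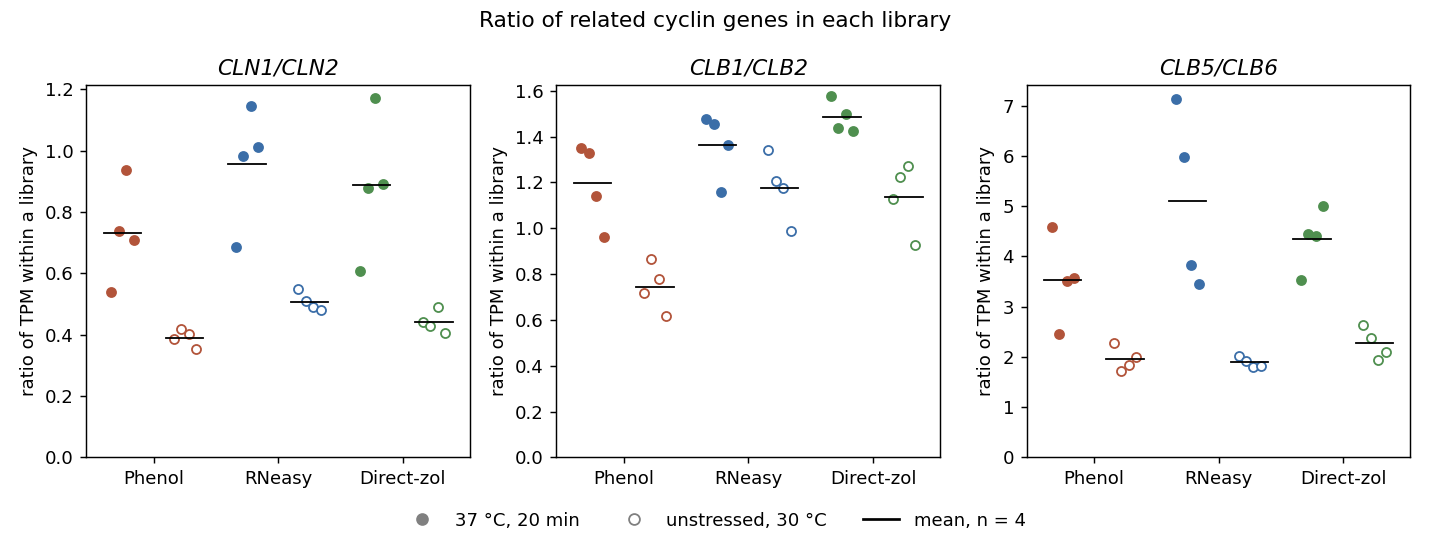
Ratio of TPM of CLN1 to CLN2, CLB1 to CLB2 and CLB5 to CLB6 in each library (linear axis from 0), filled for heat-shocked and open for unstressed cells, with lines at the mean of 4 replicates. All 3 ratios had the higher mean in heat-shocked cells with every method, and the CLB1 to CLB2 ratio was lowest in unstressed cells of the Phenol method, at 0.744.

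Because each culture was sampled for all 3 methods, the spread between replicates could be split into a part between cultures and a part within them. A culture mean over the 3 methods also holds some spread that they do not share. The part between cultures therefore overstates what the methods shared, and it would not be nil if they shared nothing. CLN2 in heat-shocked cells had the highest part between cultures of the 10 genes, with 98.2% of its sum of squares within groups, where the median of all transcripts was 49.4%. Replicate 1 stood 0.67 above its group mean on the log2 scale, averaged over the methods, and replicate 3 stood at -0.44. In heat-shocked cells CLN1 followed with 91.0%, CLB2 with 87.5%, PCL1 with 83.0% and CLB1 with 72.8%, and in replicate 1 CLN1 stood 0.22, CLB1 0.27 and CLB2 0.14 above the mean, with every method above it. For CLN3 replicate 3 was the high one, at 0.31. CLB5 (15.3%), CLB6 (15.5%) and HO (33.8%) had a part between cultures below that median. In unstressed cells CLN2 had 47.3% between cultures and HO 8.33%, where the median of all transcripts was 40.1%.

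**Figure D4:**
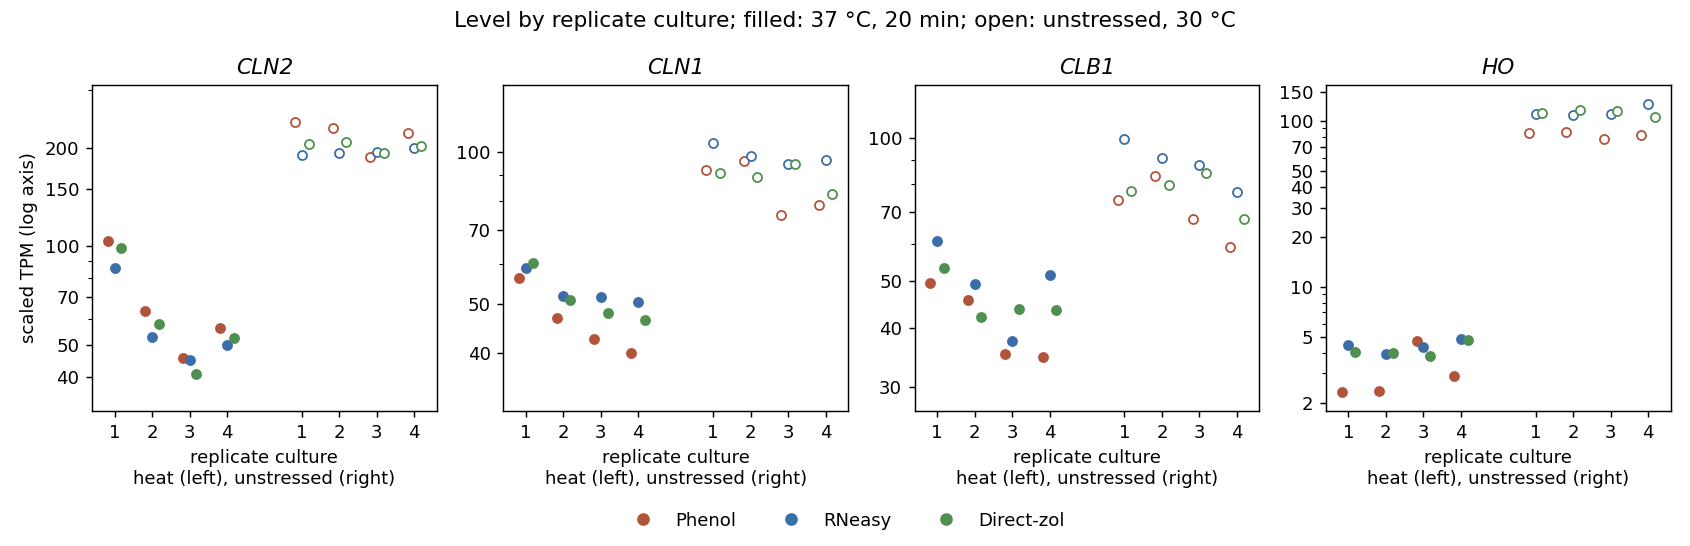
Scaled TPM (log axis) of CLN2, CLN1, CLB1 and HO by replicate culture, with heat-shocked cells on the left of each panel and unstressed cells on the right, and 1 color per isolation method. In heat-shocked cells the 3 CLN2 points of a culture lie together and replicate 1 is the highest culture, whereas the 3 HO points of a culture in heat-shocked cells lie further apart.

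The next question was whether these transcripts differed between isolation methods. RNA integrity was not examined here, so its part in these differences was not tested. In unstressed cells, Phenol against RNeasy gave 5 of 10 genes past an FDR of 0.01 in limma, where 41.8% of all transcripts passed (22.1% higher and 19.8% lower with Phenol), so the share was close to the background. CLN3 was higher with Phenol by 0.97 on the log2 scale (SE 0.15, adjusted p = 2.2e-05) and CLB2 by 0.33 (SE 0.05, 4.5e-05). CLB5 was lower with Phenol, at -0.37 (SE 0.07, 3.9e-04), as were PCL1, at -0.44 (SE 0.07, 1.6e-05), and HO, at -0.46 (SE 0.12, 0.0034). Phenol against Direct-zol in unstressed cells gave the same 5 genes in the same directions, with 44.5% of transcripts called (22.9% higher, 21.6% lower), but both comparisons use the same Phenol libraries. There CLN3 stood at 1.00, CLB2 at 0.48, CLB5 at -0.46, PCL1 at -0.50 and HO at -0.43 (adjusted p in limma between 8.3e-07 and 0.0049).

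CLN3 showed the largest of these differences. Its unstressed Phenol libraries held 147 to 233 TPM, above the 109 to 139 TPM with RNeasy and the 101 to 113 TPM with Direct-zol. HO went the other way, with 60.2 to 77.4 TPM in unstressed Phenol libraries, below the 109 to 132 TPM with RNeasy and the 94.0 to 104 TPM with Direct-zol. Of the 5, the HO call was lost most often, without replicate 1, 2 or 4 against either kit (adjusted p up to 0.044 and 0.026 in limma) and with a pseudocount of 0.1 (0.012 and 0.016). The estimate itself moved little when a replicate was left out, from -0.50 to -0.40 against RNeasy and from -0.46 to -0.39 against Direct-zol. The fit estimated the spread of each transcript over all 24 libraries. With Phenol the SD of HO in log2(scaled TPM + 1) was 0.37 in heat-shocked cells, against 0.07 in unstressed cells. The CLB2 call against RNeasy depended on the scaling. In scaled TPM, CLB2 had 103, 95.8, 87.2 and 96.0 with Phenol, against 74.1, 75.0, 74.9 and 78.0 with RNeasy. On TPM as deposited these groups overlapped and the difference was 0.04 (adjusted p = 0.64). The CLB5 call against RNeasy was lost under quantile normalization (0.021).

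The remaining 5 genes were not called in unstressed cells against either kit. Against RNeasy the scaled differences were -0.21 for CLN1 (95% interval -0.35 to -0.07), -0.32 for CLB1 (-0.55 to -0.10), -0.40 for CLB6 (-0.69 to -0.11), -0.12 for SIC1 (-0.32 to 0.08) and 0.17 for CLN2 (-0.17 to 0.51). Against Direct-zol they lay between -0.24 (CLB6) and 0.11 (CLN2). The intervals against RNeasy use a spread estimated over both treatments, with replicate numbers matched across them. For CLN2 the SD of the culture means was 0.48 in heat-shocked cells, against 0.07 in unstressed cells. Its interval thus also carries the spread of the heat-shocked cultures. Over the 12 alternatives the adjusted p of CLN2 against RNeasy ran from 0.023 to 0.88 in limma. The scaled difference of CLN2 against RNeasy turned to -0.12 on TPM as deposited, while CLN1, CLB1, CLB6 and SIC1 were then called lower with Phenol. CLN1 and CLB1 were also called lower with Phenol than with RNeasy when the replicate block was set within treatment (adjusted p = 0.0085 and 0.0043 in limma) and under quantile normalization (0.0011 and 0.0062), and CLB1 when the compared groups were fitted alone (0.0097). On the deposited TPM the median transcript itself was -0.28 in Phenol against RNeasy and -0.11 in Phenol against Direct-zol, and the share of calls that were higher with Phenol was 22% and 39.7%, against 52.7% and 51.5% after scaling.

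In heat-shocked cells, Phenol against RNeasy called 4 of 10 genes, where 43.7% of all transcripts were called (22.6% higher, 21.1% lower), and Phenol against Direct-zol 3, where 42.7% were (21.8% higher, 20.8% lower). CLN3 was higher with Phenol by 0.84 against RNeasy (SE 0.15, adjusted p = 1.0e-04 in limma) and by 0.79 against Direct-zol (1.9e-04). CLB5 was lower with Phenol, at -0.35 (6.6e-04) and -0.55 (5.4e-06), and PCL1 likewise, at -0.24 (0.0045) and -0.41 (3.2e-05). HO was called lower against RNeasy, at -0.44 (0.0040), and stood at -0.38 against Direct-zol without passing (0.012). Against Direct-zol it was called on TPM as deposited (-0.53, 0.0015), under quantile normalization (-0.54, 8.2e-04) and with a pseudocount of 0.1 (-0.48, 0.0091). The call against RNeasy was lost when the compared groups were fitted alone (0.088). In these libraries HO held 2.27, 2.32 and 2.70 TPM in 3 Phenol replicates and 4.52 TPM in replicate 3, which alone came up to the values with Direct-zol (4.25 to 5.21 TPM), and all 4 lay below the 4.65 to 6.16 TPM with RNeasy. Leaving out replicate 3 took HO to -0.63 and -0.58, both called (4.7e-05 and 9.3e-05), and leaving out any other replicate ended the call against RNeasy (up to 0.064). Against RNeasy, the calls of PCL1 (without replicate 1, 2 or 4, up to 0.044) and CLB5 (without replicate 2, 0.021) were also lost. CLN3 against RNeasy narrowly missed on TPM as deposited (0.49, adjusted p = 0.010), where the median transcript was -0.33 and 18.2% of calls were higher with Phenol, against 51.7% after scaling. Against Direct-zol that median was -0.21, and 28.8% of calls were higher with Phenol, against 51.2% after scaling.

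CLB2 was not called in heat-shocked cells, at -0.07 against RNeasy (95% interval -0.18 to 0.05) and 0.16 against Direct-zol (0.05 to 0.28, adjusted p = 0.017 in limma). Under quantile normalization CLB2 stood at 0.04 against RNeasy and at 0.23 against Direct-zol, where it was called (9.3e-04). With the deposited TPM it stood at -0.41 against RNeasy, where it was called (7.1e-05), and at -0.02 against Direct-zol. SIC1 against Direct-zol stood at -0.28 (adjusted p = 0.019) and was called without replicate 1 (0.0059), under quantile normalization (-0.40, 0.0015) and on TPM as deposited (-0.47, 1.6e-04). Against RNeasy SIC1 was called under quantile normalization (-0.33, 0.0068) and on TPM as deposited (-0.46, 1.3e-04).

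**Figure D5:**
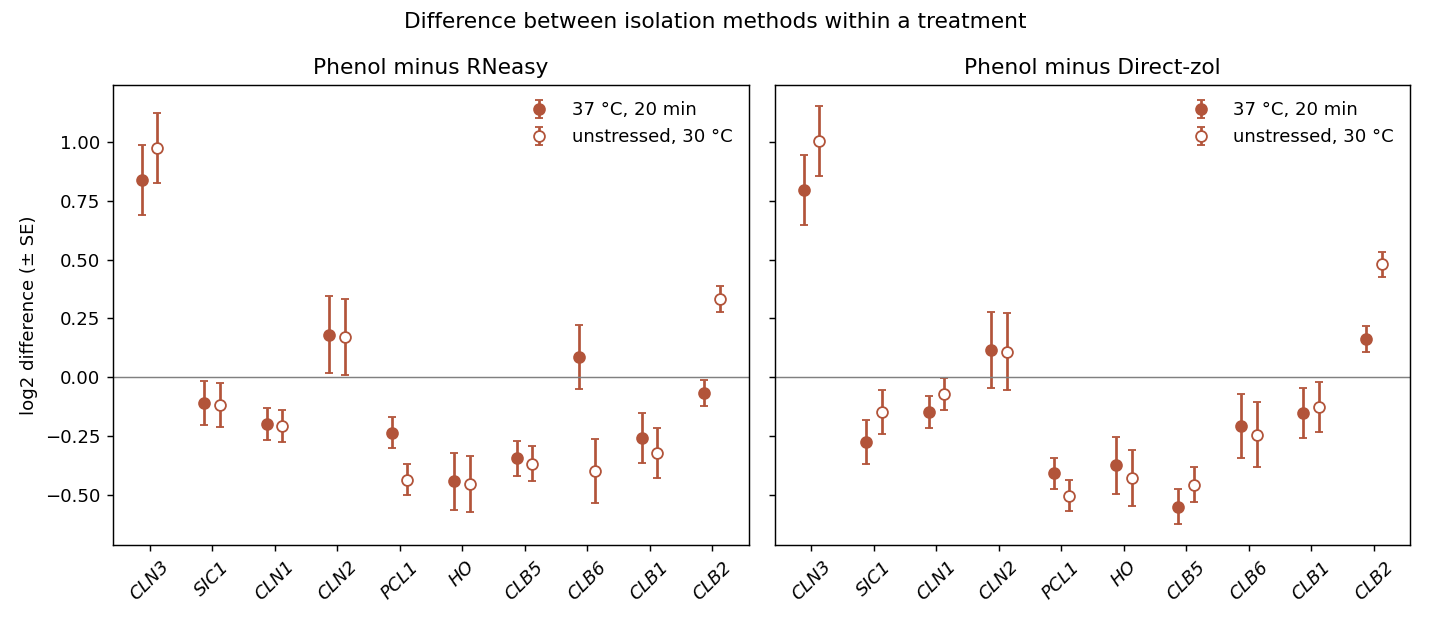
Log2 difference of scaled TPM (with a pseudocount of 1) and its SE between Phenol and RNeasy (left) and between Phenol and Direct-zol (right), filled for heat-shocked and open for unstressed cells. CLN3 lies between 0.79 and 1.00 in all 4 comparisons, PCL1, HO and CLB5 lie below 0, and CLB2 is above 0 in unstressed cells but near 0 in heat-shocked cells against RNeasy, where its sign differed between scalings.

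The kits were close to each other. RNeasy against Direct-zol called 0 of 10 genes in unstressed cells and 0 in heat-shocked cells in limma, where 3.89% and 4.43% of all transcripts were called. At an unadjusted p under 0.05 there were 1 and 4 of the 10, where 24.7% and 25.3% of all transcripts were. CLB2 came closest, at 0.15 in unstressed cells (adjusted p = 0.10) and 0.23 in heat-shocked cells (adjusted p = 0.011). On TPM as deposited 1 of the 10 genes was called in each treatment, where 740 (unstressed) and 462 (heat) of all transcripts were.

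Whether the method changed the heat shock response was tested by the difference between 2 responses. None of the 10 genes passed for any pair of methods, and 0 of 6137 transcripts did (0%). At an unadjusted p under 0.05, 267 transcripts (4.35%) stood out for Phenol against RNeasy, 270 (4.4%) for Phenol against Direct-zol and 69 (1.12%) for RNeasy against Direct-zol, with 3, 1 and 1 of the 10 genes among them. The CLB2 response differed by -0.40 between Phenol and RNeasy (95% interval -0.56 to -0.24, adjusted p = 0.33 in limma) and by -0.32 between Phenol and Direct-zol (-0.48 to -0.16, adjusted p = 0.96). Over 12 alternative fits the CLB2 differences lay between -0.45 and -0.23 for RNeasy and between -0.41 and -0.22 for Direct-zol. Fits that changed only the filter, the replicate block or the groups fitted cannot move the estimate. Those that left out a replicate used the same remaining libraries, so this range is no independent support. The CLB6 response differed by 0.48 between Phenol and RNeasy (0.08 to 0.89, adjusted p = 0.99) and by -0.45 between RNeasy and Direct-zol (-0.85 to -0.04, adjusted p = 1.0). For HO, whose response was by far the widest, the differences were 0.01 between Phenol and RNeasy (-0.34 to 0.37) and 0.06 between Phenol and Direct-zol (-0.30 to 0.41).

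The transcripts most like each gene over the 24 libraries were found by Pearson's r of log2(scaled TPM + 1) among 5974 transcripts, as a description that shares libraries, treatment and method. HO went most closely with TOS4, a late G1 gene of the SBF and MBF programme (r = 0.992), and with the flavohemoglobin gene YHB1 (0.992). CLN2 went with FAR1, the inhibitor of the Cln kinases (0.992). CLB6 went with CDC20, an activator of the anaphase promoting complex (0.983), and again YHB1 (0.982). CLB5 went with the translation initiation factor genes CDC33 and SUI3 (0.989 and 0.986). For CLN1 the closest were SLY1 (0.977) and SFG1 (0.976), for CLB1 VPS74 (0.981) and YPK3 (0.966), and for CLB2 TYW1 (0.988) and TCB2 (0.987). CLN3 went with GAT1, a transcription factor of nitrogen-regulated genes, and GSF2 (0.984 and 0.978). PCL1 had the lowest best match, with SWC4 and UBC1 (both 0.90), and SIC1 had YAP5 and STP2 (0.942 and 0.938).

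Other genes of the same programmes were counted, as a description only, from lists chosen by role with earlier results of these data known. Their counts stand beside the 32.8% (Phenol), 32.1% (RNeasy) and 32.1% (Direct-zol) of all transcripts called lower in heat-shocked cells and the 31.1%, 31.3% and 31.7% called higher. Of 24 regulators and targets of SBF and MBF, 19 were called lower and 1 higher in heat-shocked cells with Phenol, 18 and 2 with RNeasy and 18 and 3 with Direct-zol, with medians of -1.05, -1.06 and -0.99. The lowest were the ribonucleotide reductase gene RNR1 (-2.07, -2.20 and -2.21) and POL30, which encodes the replication clamp (-1.70, -2.11 and -1.98), and the highest were the single-stranded DNA binding gene RFA1 (0.50, 0.43 and 0.44) and SWI4 (0.11, 0.28 and 0.37), the DNA-binding subunit of SBF. On TPM as deposited the counts of the list were 18, 18 and 16 lower and 4, 5 and 5 higher. Beside them, the late G1 genes HO, CLB6, CLN2, CLB5 and CLN1 lay on the side of the majority and PCL1 did not.

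Of 20 genes of the G2/M cluster named after CLB2, 18, 17 and 16 were called lower with Phenol, RNeasy and Direct-zol (32.8%, 32.1% and 32.1% of all transcripts) and 0 higher, with medians of -0.59, -0.49 and -0.49. Its extremes were FKH1, a forkhead factor gene (-1.47, -1.64 and -1.58), CDC20 (-1.11, -1.14 and -1.05), MOB1 (-0.28, -0.20 and -0.11) and DBF2 (0.05, -0.02 and -0.03), the last pair encoding partners in mitotic exit. On TPM as deposited 13, 8 and 7 of the 20 were called lower and 1 higher with each method, so the size of this count rests on the scaling. Fewer of all transcripts were called lower on that scale too.

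Among 10 Mcm1 genes of the M/G1 boundary, the class of CLN3, 0, 1 and 1 rose and 4 fell, with FAR1 (-1.55, -1.58 and -1.60) and the helicase subunit gene MCM7 (-0.82, -0.77 and -0.64) lowest and CDC6 (0.25, 0.21 and 0.33) and SWI4 highest. The 4 that fell compare with 32.8%, 32.1% and 32.1% of all transcripts, and the 0, 1 and 1 that rose with 31.1%, 31.3% and 31.7%. With the deposited TPM, 3, 4 and 6 were called higher and 3, 3 and 2 lower.

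Of 10 regulators of HO, 7, 5 and 5 were called lower (32.8%, 32.1% and 32.1% of all transcripts) and 0, 1 and 1 higher (31.1%, 31.3% and 31.7%), with SWI5, the activator that first opens the HO promoter, at -0.90, -0.73 and -0.72 and SWI6 at -0.53, -0.59 and -0.52. The highest were SWI4 and the corepressor gene SIN3 (-0.04, 0.09 and 0.09). On TPM as deposited the counts were 4, 4 and 1 lower and 2, 4 and 4 higher, and the medians of -0.14, 0.05 and 0.07 were near 0. Of 11 other cyclin genes, 2, 3 and 3 were called lower and 2, 2 and 1 higher, with the mitotic cyclin genes CLB3 (-0.60, -0.51 and -0.54) and CLB4 (-0.45, -0.55 and -0.51) lowest and the Pho85 cyclin genes PCL5 (0.83, 0.80 and 0.87) and PCL8 (0.30, 0.32 and 0.21) highest. On TPM as deposited more of the 11 were called higher than lower with every method (4 against 1, 6 against 2 and 7 against 1). Among 17 kinases and direct regulators, 7 rose and 6 fell with each method, with FAR1 and CDC20 lowest and CAK1 (0.72, 0.78 and 0.73) and CDC53 (0.60, 0.74 and 0.72) highest. Of all transcripts 31.1%, 31.3% and 31.7% rose and 32.8%, 32.1% and 32.1% fell, so these counts were close to the background, and on TPM as deposited 9 were called higher with each method and 5, 4 and 4 lower. CDC28, the kinase of the CLN and CLB cyclins, stood at 0.54, 0.39 and 0.47, opposite in sign to 6 of its 7 cyclin genes among the 10.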

How the data were processed

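The authors trimmed single-end 50-base reads with Trimmomatic, aligned them with STAR to the R64 (sacCer3) genome and estimated TPM with RSEM. The deposited TPM are not scaled between libraries. Their table of edgeR comparisons holds the authors' own fold changes and p-values and was not used.

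Each library was scaled by its trimmed mean log ratio to the average library (30% of ratios and 5% of abundances trimmed at each end), and log2 was taken with a pseudocount of 1. Transcripts with a mean of at least 1 TPM in at least 1 group were kept, 6137 of 6685. One limma 3.58.1 fit (R 4.3.3) over all 24 libraries held 6 sample types and the replicate number, as in the study, with a trend in the moderation and Benjamini-Hochberg adjustment over all transcripts at FDR 0.01. It was tested on simulated data. The replicate numbers pair samples because the methods state that 1 culture gave all 3 samples. Deviations of same-numbered libraries of one treatment had a mean r of 0.192 (24 pairs, -0.305 to 0.588), and of different treatments 0.0066 (36 pairs). The main fit nevertheless held 1 effect per replicate number over both treatments, and a block within treatment was run as an alternative. All libraries were made and sequenced as 1 batch. Members and lists were chosen with earlier results of these data known. All 10 genes are named, with the 2 most similar transcripts of each and the 2 lowest and 2 highest of each list. CDC28 was named after its values were seen. One similar transcript of CLN2 and 1 list are not reported here.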

Additional observations from a re-analysis of the deposited data

Results flagged for a closer look

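Of 60 groups of 4 libraries examined for a library far from the others, 2 were flagged, and chance flags about 1 in 20. CLN2 in heat-shocked cells of the RNeasy method was 107.53 TPM in replicate 1, where the other 3 libraries held 55.44 to 63.10 TPM. The same culture, replicate 1, was also the highest with Phenol (101.86 TPM) and Direct-zol (110.54 TPM). CLN3 in unstressed cells of the Phenol method was 147.47 TPM in replicate 3, the lowest, where the other 3 libraries held 218.84 to 233.44 TPM.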

How the results depend on the processing

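Of 79 results for single genes under 12 alternatives, 852 of 948 values kept direction and call, 39 lost the call, 36 gained it and 21 changed sign, none of these from a called value. Direction could not change in fits that differed only in the filter, the replicate block or the groups fitted. All 7 calls of lower levels after heat held with each method throughout. That is no support, since the response was known when the genes were listed and the refits share libraries. Without the replicate block, PCL1 (heat, Phenol, adjusted p = 0.013), SIC1 (heat, RNeasy, 0.011) and PCL1 (Phenol against RNeasy, heat, 0.032) lost the call and CLN3 (heat, RNeasy, 0.0096) gained it. With the block within treatment, RNeasy against Direct-zol called 401 transcripts in unstressed and 424 in heat-shocked cells, against 239 and 272, and 1 of the 10 genes, CLB2, in heat-shocked cells (0.0061). CLN3 (heat, RNeasy, 0.0021), CLN1 (0.0085) and CLB1 (0.0043, both Phenol against RNeasy, unstressed) also gained the call, and the heat responses of Phenol and RNeasy differed for 1 transcript. On TPM as deposited, 8 (Phenol against RNeasy, unstressed), 7 (the same, heat) and 6 (Phenol against Direct-zol, heat) of the 10 genes were called. In these comparisons 3341, 3597 and 3095 of the 6137 transcripts were called. There RNeasy against Direct-zol called 1 gene in each treatment and 740 (unstressed) and 462 (heat) transcripts. Quantile normalization gave 6 genes for Phenol against Direct-zol in heat, and no filter gave 1 for RNeasy against Direct-zol in heat. Fitting the compared groups alone gave 1 for Phenol against RNeasy in heat and 461 transcripts for RNeasy against Direct-zol unstressed. The shares of all transcripts beside these counts of genes are not given here, so the counts are no finding about the 10 genes. Leaving out 1 replicate gave 1 to 4 genes for Phenol against RNeasy in heat, where 1940 to 2354 transcripts were called. For RNeasy against Direct-zol it gave 89 to 104 (unstressed) and 83 to 155 (heat) transcripts. Genes with a motif numbered 2 in the shorter window and 5 in the longer.

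Signs changed on TPM as deposited for CLN2 (Phenol against RNeasy -0.123 unstressed and -0.165 heat, against Direct-zol -0.0712 heat), CLB6 (Phenol against RNeasy, heat, -0.18) and CLB2 (Phenol against Direct-zol, heat, -0.0223), and for the heat response differences of Phenol and Direct-zol of CLB6 (-0.0282) and HO (-0.0036). Under quantile normalization they changed for CLB2 (0.0366) and CLB6 (-0.101) in Phenol against RNeasy in heat, and for the response differences of HO (-0.0403 to RNeasy, -0.0735 to Direct-zol) and CLB6 (-0.17 to Direct-zol). With a pseudocount of 0.1 the response differences were -0.104 (RNeasy) and -0.0463 (Direct-zol) for HO and -0.0043 for CLB6 (Direct-zol). With 1 replicate left out, CLN1 (Phenol against Direct-zol, unstressed) ran from -0.128 to 0.0164, CLB6 (Phenol against RNeasy, heat) from -0.0208 to 0.2094, the HO response difference from -0.187 to 0.133 (RNeasy) and -0.195 to 0.148 (Direct-zol), and that of CLB6 from -0.0032 to 0.127 (Direct-zol). The cause of these changes was not tested.

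TPM hold no read counts, so no counting error was computed for the lowest levels, HO and CLB6 in heat-shocked cells. TPM is relative within a library, and an equal shift of all transcripts cannot be seen.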
